A study of Mus musculus with 2 samples.

Results

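Interneurons of the medial ganglionic eminence (MGE) type in which no somatostatin transcript was found were described in the dorsal telencephalon of E16.5 mouse embryos. The cells were selected on their own read-out: among cells with 1500 to 60000 unique molecular identifiers (UMIs, 1 per captured transcript molecule) and under 10% mitochondrial UMIs, a cell was taken when it held at least 1 Lhx6 UMI, at least 2 Nxph1 UMIs, at least 2 UMIs summed over Gad1, Gad2, Dlx1 and Dlx6os1, and 0 UMIs of Sst, Top2a, Eomes and Neurod1. This choice gave 510 of 16348 passing cells, 239 of 8139 in WT replicate 1 and 271 of 8209 in WT replicate 6. The series compares an Emx1-Cre conditional knockout of Dot1l with controls by droplet-based single-cell RNA sequencing, and the 2 libraries used here both carry the genotype label WT, with no treatment, so nothing below bears on the loss of Dot1l. The labels name the tissue as brain hemispheres, the extraction notes as dorsal telencephalon. The rule does not show whether a selected cell lay in the cortex. The titles give the libraries numbers with the same first part and a different second part. The study names its E16.5 embryos as C57BL6/J and counts them as a whole, but the sources used here do not tie each library to an embryo or litter. Whether the WT embryos carried the Cre driver or a floxed allele is not given in the sources used here.

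MGE-derived interneurons are born in the ventral telencephalon under Nkx2-1, switch on the LIM-homeodomain factor Lhx6 as they leave the cell cycle, and migrate tangentially into the cortex. They comprise the later somatostatin and parvalbumin classes, but Pvalb, the marker of the latter, is normally expressed only after birth, so a cell without Sst at this age cannot be assigned to a mature class from Pvalb. Interneurons of the caudal ganglionic eminence (CGE) enter the cortex alongside them and express Prox1, Adarb2 and Nr2f2 instead.

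The share of Sst-negative MGE interneurons among passing cells was 2.94% (95% Wilson interval 2.59 to 3.33%) in WT replicate 1 and 3.30% (2.94 to 3.71%) in WT replicate 6, 3.12% ± 0.258 (SD, n = 2). Both intervals cover counting error only. Of all cells that met the MGE rule with or without Sst, the Sst-negative cells made up 78.9% and 82.9%. Since a cell of few UMIs can miss a transcript, a count of 0 does not show that Sst was off. The Sst-negative cells had median depths of 4616 and 4120 UMIs, against 6028 and 5451 UMIs in the 64 and 56 Sst-positive MGE cells. Of these, 21 and 20 cells held exactly 1 Sst UMI and so lay just outside the rule. Excitatory neurons were taken by at least 3 UMIs summed over Neurod2 and Neurod6 and 0 over Gad1, Gad2, Dlx1 and Dlx6os1. In these cells, which should lack Sst, 4.44% and 3.34% held an Sst UMI at median depths of 9309 and 8239.5 UMIs. The condition on the GABA genes removes doublets with interneurons, so the share that doublets give may be higher.

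The Lhx6 threshold decided the membership of many cells. Exactly 1 Lhx6 UMI was found in 129 and 135 of the selected cells, and 305 and 281 further cells met every condition except that Lhx6 was 0. The Nxph1 threshold was far less tight, with 13 and 9 cells at exactly 2 UMIs, 16 and 18 cells at 1 UMI just outside, and a median of 13 and 14 Nxph1 UMIs per selected cell. A UMI of Top2a, Eomes or Neurod1 was the only bar for 68 and 50 cells, whose median depths of 10820 and 9466 UMIs were well above those of the selected cells.

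Droplets that hold a pair of cells touch the levels given below. A simulation-based doublet score marked 37 of the 239 cells (15.5%) and 23 of the 271 cells (8.49%) as likely doublets. In all other passing cells the shares were 11.2% and 10.5%, the share of each library as a whole being set by the assumed rate. The likely doublets among the Sst-negative cells were deep. Leaving them out lowered the summed UMIs of these cells from 1494448 to 960584 in WT replicate 1 and from 1338739 to 1077363 in WT replicate 6. At least 3 UMIs summed over 9 excitatory neuron genes were present in 33 Sst-negative cells (13.8%) and 19 (7.01%). The shares were 12.5% and 8.93% in Sst-positive MGE cells and 12.2% and 15.4% in CGE-type cells, defined below. Other levels may shift without the likely doublets. The libraries shared 59 cell barcodes, of which 3 belonged to selected cells of WT replicate 1 and 0 to those of WT replicate 6. The summed counts of the Sst-negative cells differed between the libraries by more than sampling noise (chi-square 2.7 per degree of freedom over 11999 genes), so they were not 1 library deposited more than once, but this does not show that they came from separate embryos.

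To examine whether the selected cells carried the expected markers, the summed UMIs were expressed as CPM, that is per 1000000 UMIs of a class, and set against all other passing cells. Because the same counts chose the cells, these values are a description without a test. Of the 5 markers, Lhx6 and Nxph1 were part of the rule and the other 3 were not. Maf, a basic leucine zipper factor of MGE interneurons, stood at 466 and 459 CPM against 44.8 and 37.1 CPM in all other cells. Erbb4, the neuregulin receptor of tangentially migrating interneurons, stood at 11230 and 12210 CPM against 990 and 967 CPM. Ackr3, the atypical receptor that tunes the supply of the chemokine Cxcl12, stood at 234 and 335 CPM against 19.9 and 19.9 CPM. All 3 markers were far higher in both libraries, so the data did not go against the label of MGE interneurons. Without the likely doublets Maf stood at 647 and 512 CPM, Erbb4 at 14150 and 13920 CPM and Ackr3 at 294 and 385 CPM.

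**Figure D1:**
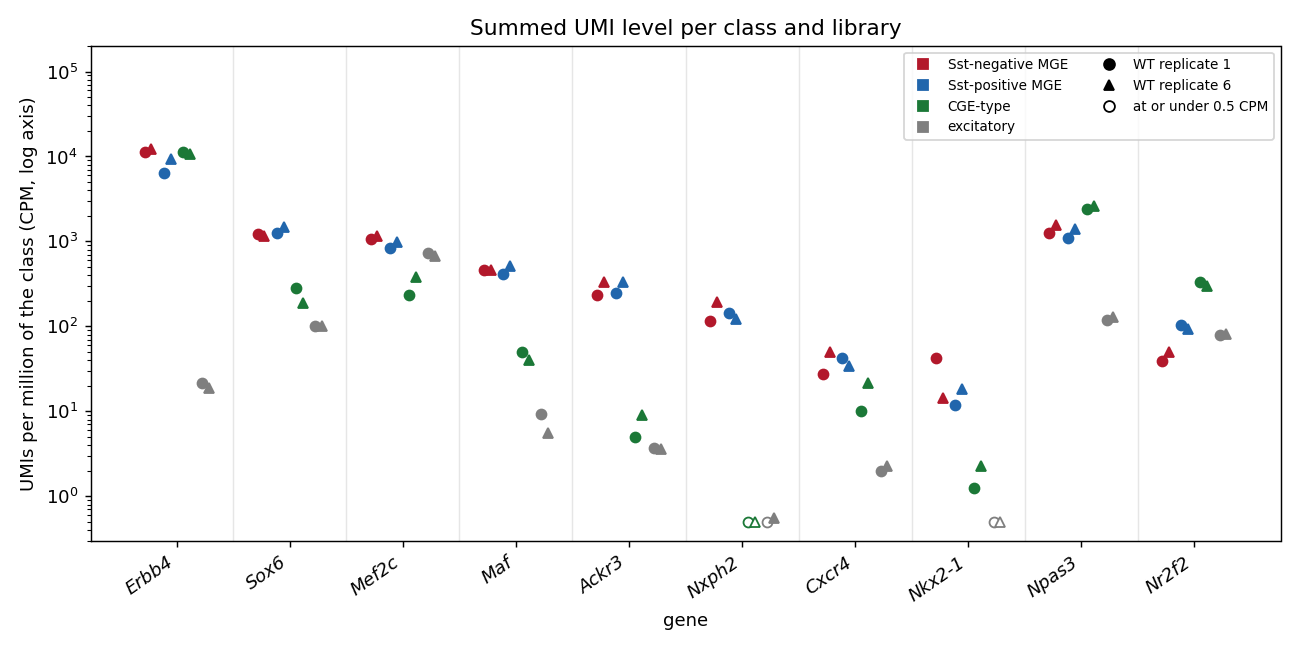
Summed level of 10 genes in CPM of the class (log axis) in 4 classes of cells, with 1 point per library and hollow points for values at or under 0.5 CPM. Maf, Ackr3 and Nxph2 lay at similar heights in the Sst-negative and Sst-positive MGE cells and far lower in CGE-type and excitatory cells, while Erbb4 was as high in CGE-type cells and Npas3 and Nr2f2 were highest in CGE-type cells.

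The same markers were seen cell by cell after each cell was thinned to 1500 UMIs, which removes the difference in depth. Maf was found in 49.0% and 45.0% of Sst-negative cells, in 42.2% and 50% of Sst-positive MGE cells and in 0.913% and 0.798% of excitatory cells. Free RNA can give such a level. Since excitatory cells were chosen without GABA gene UMIs, their shares do not show the level that doublets with interneurons can give. Ackr3 was found in 32.6% and 36.9% of Sst-negative cells and in 0.498% and 0.762% of excitatory cells. Erbb4 was found in 97.9% and 99.3% of Sst-negative cells, but also in 90.5% and 93.7% of CGE-type cells, so it did not mark the MGE origin. Without thinning, Maf was found in 74.5% and 73.4% and Ackr3 in 62.3% and 66.4% of Sst-negative cells.

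Across the genes at 20 CPM or more in either group, 196 of 7770 (2.52%) were at least 2-fold higher in the Sst-negative MGE cells than in all other cells in both libraries, and 285 (3.67%) at least 2-fold lower. These counts were 246 and 472 without the likely doublets. After the rule genes, the gene with the highest ratio was Dlgap2, a postsynaptic scaffold gene, at 1663 and 1835 CPM against 114 and 110 CPM. It was followed by Erbb4, Cntnap5c, Maf, Dpp10 and Gria1. Also among the leading 20 were the AMPA receptor subunit genes Gria1 (1823 and 2674 CPM against 213 and 207 CPM) and Gria4 (1809 and 2268 CPM against 220 and 218 CPM), the AMPA receptor auxiliary gene Cacng3 (86.3 and 108 CPM against 6.64 and 6.39 CPM) and the kainate receptor auxiliary gene Neto1 (326 and 244 CPM against 35.2 and 27.9 CPM). Kcnc2, which encodes the Kv3.2 potassium channel of later fast-spiking cells, stood at 579 and 640 CPM against 83.9 and 82.8 CPM. Sst-positive MGE cells held Kcnc2 at 717 and 1047 CPM, Gria1 at 2615 and 3293 CPM and Cacng3 at 104 and 160 CPM. Dlgap2 stood at 1664 and 1953 CPM and Neto1 at 897 and 977 CPM in them. Gria4 was at 1600 and 1821 CPM there, under the Sst-negative cells. High levels of these genes were thus shared with Sst-positive MGE cells.

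Of 18 transcription factors of the MGE lineage, 17 reached 20 CPM, and 12 of these were at least 2-fold higher than in all other cells while 0 were at least 2-fold lower. The list's median log2 ratio was 1.28, against -0.03 over all genes. Sox6, needed for the placement of MGE interneurons, stood at 1220 and 1143 CPM against 269 and 242 CPM. Nkx2-1 was low and uneven, at 42.2 and 14.2 CPM against 5.37 and 4.03 CPM, and was found in only 26 and 15 of the selected cells. With fewer than 30 such cells in each library, no test of cells with Nkx2-1 against cells without it was run.

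Genes of migration and guidance were mixed: of 20 at 20 CPM or more, 5 were at least 2-fold higher and 3 at least 2-fold lower, with a median log2 ratio of 0.07, and without the likely doublets 5 were lower. The higher ones included Cxcr4, the signalling receptor for Cxcl12 (27.4 and 49.3 CPM against 5.35 and 5.7 CPM), and Epha5 (3428 and 4258 CPM against 1286 and 1365 CPM). The lower ones included the netrin receptor gene Dcc (899 and 803 CPM against 1900 and 1899 CPM) and the semaphorin receptor gene Nrp1 (118 and 113 CPM against 352 and 370 CPM). Leaving out the likely doublets brought Dcc to 506 and 537 CPM and Nrp1 to 43.7 and 76.1 CPM. Efnb2, whose ephrin product the study follows in signalling from interneurons to progenitors, stood at 205 and 241 CPM against 174 and 190 CPM. Efna5 stood at 304 and 300 CPM against 140 and 126 CPM.

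Synaptic adhesion genes were at least 2-fold higher for 5 of 18 and lower for 0 of 18 (with the likely doublets left out, for 5 and 2 of 18), led by Nxph2, a secreted neurexin ligand related to Nxph1, at 117 and 196 CPM against 6.01 and 5.91 CPM, and Cntnap4 at 367 and 444 CPM against 58.2 and 62.6 CPM. Nrxn3, a presynaptic neurexin, stood at 15720 and 16900 CPM against 3139 and 2865 CPM. Of the genes of GABA transport and reception, 2 of 9 were at least 2-fold higher, among them the vesicular GABA transporter gene Slc32a1 at 56.9 and 74.0 CPM against 13.6 and 12.2 CPM. Of 20 neuropeptide and subtype genes, 6 reached 20 CPM and 3 of these were at least 2-fold higher, while 8 were at 0 UMIs in both libraries: Pvalb, Cort, Crh, Crhbp, Vip, Pdyn, Th and Tacr1. A count of 0 Pvalb among 510 cells allows a share of up to 0.588% of cells with a UMI at this depth.

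Markers of other cells were mostly low, with exceptions. Of the excitatory neuron genes 7 of 8 were at least 2-fold lower, of the radial glia genes 4 of 7, of the cycling genes 4 of 5, of the fibroblast genes 4 of 4 and of the endothelial genes 2 of 2, with 0 higher in each list. The rule barred Top2a, Eomes and Neurod1 from the selected cells but not from all other cells. Low levels of cycling, progenitor and excitatory genes were therefore in part set by the choice of cells. Of the CGE genes 1 of 6 was higher, Npas3, at 1271 and 1544 CPM against 365 and 353 CPM, and 0 were lower, or 1 without the likely doublets. Of the striatal genes 0 of 8 were higher and 2 lower, or 4 without the likely doublets. Among the striatal genes, Foxp2 stood at 84.3 and 78.9 CPM and Pbx3 at 103 and 188 CPM when the likely doublets were left out, in place of 209 and 152 CPM and 208 and 245 CPM. Of the pallidal and cholinergic genes 2 reached 20 CPM, with 0 higher and 0 lower, or 1 lower without the likely doublets. Gbx2, Chat and Slc18a3 were among those at 0 UMIs, and Lhx8 was found in 4.6% and 0.369% of cells. At least 1 UMI of this list was found in 13.4% and 7.01% of Sst-negative cells. The shares were 9.38% and 3.57% in Sst-positive MGE cells, 19.6% and 11.9% in CGE-type cells and 11.25% and 9.62% in excitatory cells. The microglial genes C1qa (4.01 and 47.1 CPM) and C1qb (7.36 and 51.5 CPM) differed between the libraries, and all 4 globin genes were present throughout, with summed levels of 2994 and 5769 CPM in the Sst-negative cells. The part of these other cells in the results was not tested beyond leaving out the likely doublets.

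**Figure D2:**
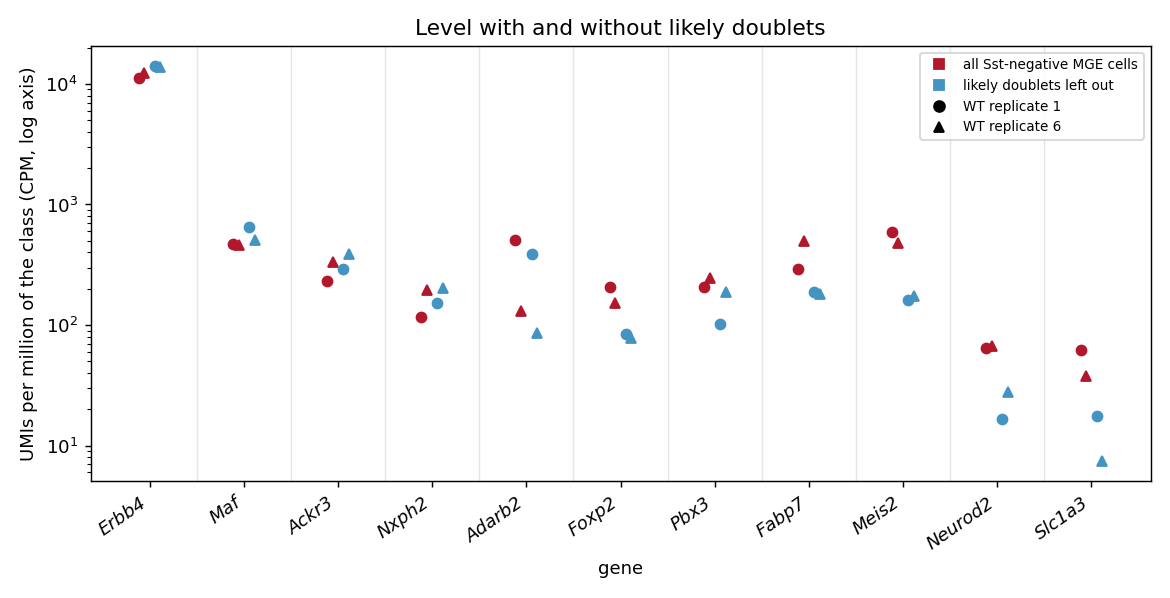
Level of 11 genes in the Sst-negative MGE cells, in CPM (log axis), over all of them and with the likely doublets left out, with 1 point per library. Erbb4, Maf, Ackr3 and Nxph2 were slightly higher with the likely doublets left out, while Neurod2, Slc1a3 and Meis2 were lower in both libraries, Meis2 at 160 and 175 CPM in place of 596 and 484 CPM.

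The genes by which the study's model is defined were present at levels like those elsewhere. Dot1l stood at 41.5 and 38.1 CPM against 40.9 and 38.8 CPM in all other cells, and Dnmt1 at 56.2 and 50.1 CPM against 60.1 and 64.6 CPM. None of 7 genes of DNA and histone methylation was 2-fold higher or lower.

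To ask how the Sst-negative cells differed from Sst-positive MGE cells, the counts were summed per library and class and compared with edgeR's quasi-likelihood test, p-values being adjusted over all 9239 genes tested. The classes differed by rule only in Sst, which was left out of the test together with the other rule genes. At an adjusted p under 0.05, 11 genes (0.119%) were higher and 20 genes (0.216%) lower in the Sst-negative cells. With the library as a replicate block, which pairs the classes of 1 library, these counts were 152 and 111, and all 31 genes were among them. The p-values measure only the spread between these 2 libraries, which may be technical.

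The lower genes included 4 of the 8 neuropeptide and subtype genes tested, Npy, Calb1, Reln and Elfn1, with 0 higher, and the median log2 difference of this list was -1.31 against -0.01 over all genes. Npy, the peptide transmitter of a part of the somatostatin class, stood at 204 and 129 CPM in Sst-negative cells and at 838 and 445 CPM in Sst-positive cells, so the classes did not overlap. Its log2 difference was -1.93 ± 0.30 (SE, adjusted p = 0.0331). Elfn1, a postsynaptic adhesion protein of somatostatin interneurons that shapes their excitatory input, stood at 38.8 and 45.6 CPM against 168 and 108 CPM (log2 difference -1.71 ± 0.24, adjusted p = 0.0234). The calcium-binding protein gene Calb1 stood at 33.5 and 36.6 CPM against 111 and 95.2 CPM (-1.54 ± 0.22, adjusted p = 0.0255), but lost its call without the likely doublets (-1.02, adjusted p = 0.147). Reln, the secreted layering glycoprotein, stood at 263 and 197 CPM against 537 and 452 CPM (-1.08 ± 0.19, adjusted p = 0.0489). After thinning, Npy was found in 13.8% and 12.2% of Sst-negative cells, 37.5% and 28.6% of Sst-positive cells and 1.91% and 1.96% of excitatory cells.

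Among the other lower genes were Cdh9, a type II cadherin, at 8.7 and 9.71 CPM against 97.0 and 49.1 CPM (log2 difference -2.99 ± 0.38, adjusted p = 0.0179). Neto1 stood at 326 and 244 CPM against 897 and 977 CPM (-1.69 ± 0.18, adjusted p = 0.00444), and Nebl, an actin-binding protein gene, at 30.1 and 26.9 CPM against 121 and 120 CPM (-2.04 ± 0.22, adjusted p = 0.00444). Neto1 was thus far higher in the Sst-negative cells than in all other cells and yet lower than in the Sst-positive class. Of the MGE transcription factors, 1 of 17 was lower, Satb1, a chromatin organiser of somatostatin interneuron maturation (207 and 219 CPM against 469 and 375 CPM, -0.97 ± 0.17, adjusted p = 0.0481), and 1 was higher, Etv1.

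Etv1, an ETS factor that is known in later parvalbumin cells, stood at 116 and 117 CPM in Sst-negative cells against 42.6 and 30.7 CPM (log2 difference 1.66 ± 0.23, adjusted p = 0.0234). Foxp2, a forkhead factor of striatal and deep-layer neurons, stood at 209 and 152 CPM against 37.9 and 21.5 CPM (2.58 ± 0.30, adjusted p = 0.0079). St18, a zinc-finger factor, stood at 70.3 and 70.2 CPM against 21.3 and 9.21 CPM (2.15 ± 0.34, adjusted p = 0.0373). Pbx3, a homeodomain factor, stood at 208 and 245 CPM against 61.5 and 52.2 CPM (2.0 ± 0.20, adjusted p = 0.00444). Leaving out the likely doublets kept Foxp2 (2.12, adjusted p = 0.0111), Etv1 (1.52, adjusted p = 0.00956) and St18 (2.84, adjusted p = 0.00279), but not Pbx3 (1.68, adjusted p = 0.0728).

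Radial glia genes moved with this comparison: Slc1a3 and Fabp7, 2 of 5 tested, were higher in the Sst-negative cells, Fabp7 at 289 and 501 CPM against 140 and 135 CPM (1.54 ± 0.26, adjusted p = 0.0481). Without the likely doublets Fabp7 was at 187 and 180 CPM against 139 and 150 CPM (0.40, adjusted p = 0.457), and Slc1a3 was too low to be tested. The Sst-positive class held a like share of likely doublets, 14.1% and 16.1%, but its deepest cell had 18754 and 12888 UMIs, against 44324 and 34742 UMIs in the Sst-negative class. Restricted to cells of 2000 to 6000 UMIs, edgeR called 0 of 5873 genes in this comparison, with 436 at an unadjusted p under 0.05. Without the likely doublets it called 37 genes higher and 58 lower.

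No call was made for 15 of the 17 MGE transcription factors, nor for any of the 20 migration genes, 18 synaptic adhesion genes, 10 GABA genes, 7 fast-spiking genes, 7 CGE genes or 7 methylation genes tested. The 2 pallidal and cholinergic genes tested, Zic1 and Isl1, were not called either, with a median log2 difference of 2.35. Zic1 had 33 and 17 UMIs in Sst-negative cells against 1 and 0 UMIs in Sst-positive cells. Maf stood at 466 and 459 CPM in Sst-negative and 419 and 513 CPM in Sst-positive cells, and Ackr3 at 234 and 335 CPM and 249 and 332 CPM, so that the libraries of both classes overlapped. The log2 difference was 0.61 ± 0.16 (adjusted p = 0.178) for Erbb4, -0.18 ± 0.14 (adjusted p = 0.707) for Sox6, 0.30 ± 0.15 (adjusted p = 0.497) for Mef2c and 0.13 ± 0.25 (adjusted p = 0.898) for Dnmt1. With 2 libraries a p above the threshold does not show that the levels were alike.

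**Figure D3:**
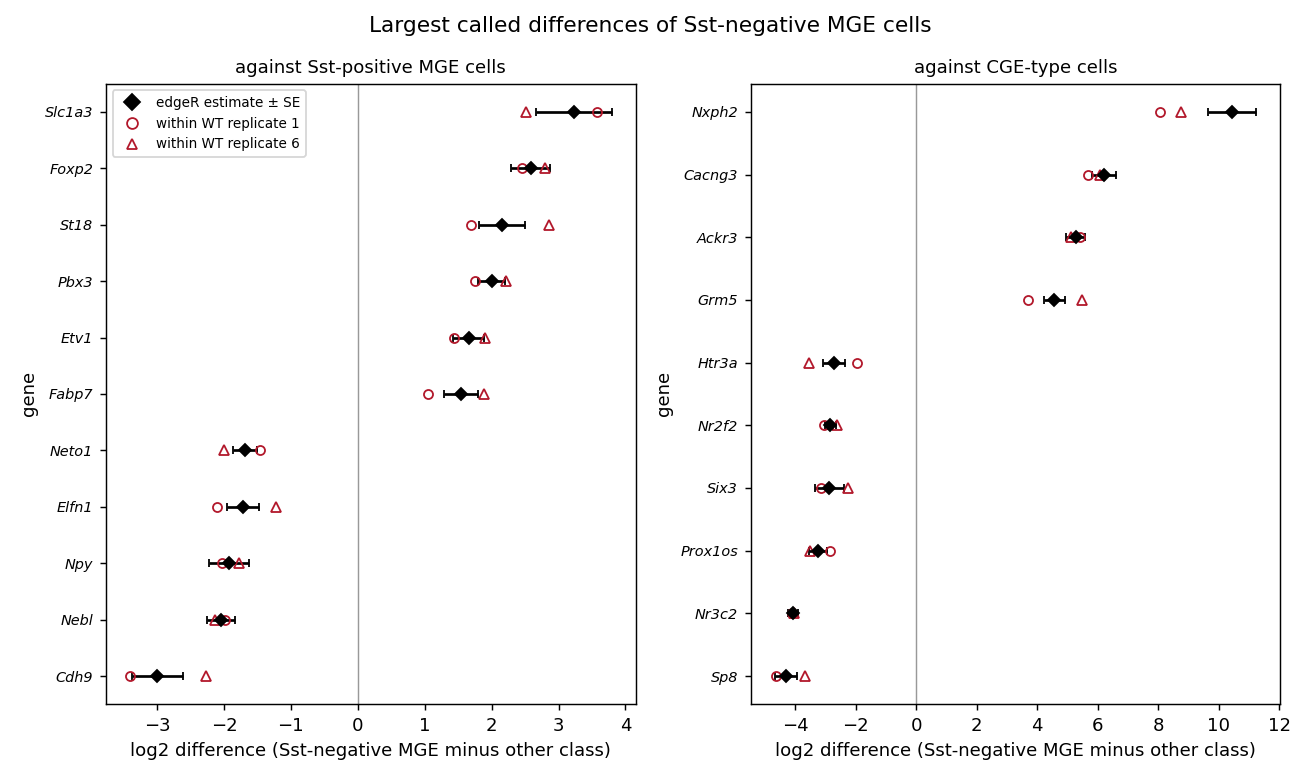
Log2 difference of the Sst-negative MGE cells from Sst-positive MGE cells (left, 11 genes) and from CGE-type cells (right, 10 genes) for called genes described in the text that are among the 10 with the largest difference in each direction, with the edgeR estimate and its SE (diamonds) and the difference within each library (open symbols). The same sign in both libraries was a condition for a gene to be picked. The Nxph2 estimate on the right rests on 0 counts in CGE-type cells, so its size depends on the prior count.

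To compare the cells with the interneurons of another origin, 148 and 143 CGE-type cells were taken by at least 1 Prox1 UMI and 2 Adarb2 UMIs with 0 Lhx6 UMIs, under the same cell filter and the same conditions on GABA and progenitor genes. Their median depths of 4389.5 and 4231 UMIs were close to those of the Sst-negative MGE cells. The edgeR test called 225 of 9757 genes (2.31%) higher and 156 (1.6%) lower in the Sst-negative MGE cells, and 245 and 172 with the library as a replicate block. The counts were 317 and 258 without the likely doublets. Both classes were chosen by genes of their origin, so other genes expressed along with the rule genes were bound to differ in part. Leaving the rule genes out of the test does not undo this. The calls on MGE and CGE genes below are therefore not independent evidence of origin.

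Of 17 MGE transcription factors 7 were higher and 2 lower, with a median log2 difference of 0.59 against -0.01 over all genes. Maf stood at 466 and 459 CPM against 50.3 and 40.1 CPM (log2 difference 3.35 ± 0.18, adjusted p = 3.8e-05) and Sox6 at 1220 and 1143 CPM against 284 and 190 CPM (2.31 ± 0.21, adjusted p = 0.0004). Mef2c, a MADS-box factor of interneuron maturation, stood at 1057 and 1147 CPM against 235 and 381 CPM (1.83 ± 0.22, adjusted p = 0.0019). Satb1, Bcl11b and Nkx2-1 were also among the higher factors. The lower factors were Npas1 and Zfhx3, at log2 differences of -0.90 and -0.81. Dlx2, Dlx5, Dlx6 and Sp9, factors shared by both origins, were not called.

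Receptors of the Cxcl12 system separated the origins in part. Ackr3 stood at 234 and 335 CPM against 5.03 and 9.17 CPM (log2 difference 5.28 ± 0.32, adjusted p = 4.1e-05) and was found after thinning in 0.676% and 1.4% of CGE-type cells, near its share in excitatory cells. Cxcr4 was not called (1.23 ± 0.41, adjusted p = 0.2), nor was Erbb4 (0.08 ± 0.13, adjusted p = 0.884). Of the 20 migration genes tested, 3 were higher, Ackr3, Unc5c and Efna5, and 0 lower.

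Of 18 synaptic adhesion genes 5 were higher, Nxph2, Ptprt, Cntnap4, Cntnap2 and Tenm2, and 0 lower. Nxph2 had 437 UMIs in the Sst-negative cells and 0 UMIs in the CGE-type cells, at least 85.7-fold higher against a floor of 3 counts over both libraries. Its neurexin receptor gene Nrxn3 was not called (-0.19 ± 0.13, adjusted p = 0.633). Ptprt, a receptor phosphatase gene, stood at 605 and 894 CPM against 98.1 and 166 CPM (2.49 ± 0.27, adjusted p = 0.00102). Cacng3 had 273 UMIs against 2 UMIs, an 80.3-fold ratio with an exact 95% counting interval of 22.0 to 667. Grm5, the metabotropic glutamate receptor 5 gene, stood at 517 and 833 CPM against 39.0 and 18.4 CPM (4.56 ± 0.35, adjusted p = 0.0002).

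Of 6 fast-spiking maturation genes 4 were higher, among them Kcnc2, Scn1a and Mef2c, and 0 lower. Kcnc2 stood at 579 and 640 CPM against 232 and 204 CPM (1.48 ± 0.16, adjusted p = 0.000987). Of 9 neuropeptide and subtype genes 4 were higher, Npy, Calb1, Elfn1 and Reln, the same 4 that were lower than in the Sst-positive class, and 0 lower. Npy stood at 204 and 129 CPM against 8.81 and 20.6 CPM (3.47 ± 0.36, adjusted p = 0.000749). These 4 genes thus lay between the CGE-type and the Sst-positive MGE levels in both libraries.

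All 6 CGE genes tested were lower in the Sst-negative MGE cells, with a median log2 difference of -2.49. Nr2f2, the orphan nuclear receptor COUP-TFII, stood at 39.5 and 49.3 CPM against 330 and 303 CPM (-2.84 ± 0.17, adjusted p = 4.1e-05), Sp8, a zinc-finger factor, at 2.68 and 3.74 CPM against 76.8 and 52.7 CPM (-4.30 ± 0.37, adjusted p = 0.000366) and Htr3a, the ionotropic serotonin receptor gene, at 11.4 and 5.23 CPM against 45.3 and 66.5 CPM (-2.72 ± 0.36, adjusted p = 0.00313). Nr3c2, the mineralocorticoid receptor gene, was lower as well (26.8 and 26.9 CPM against 463 and 447 CPM, -4.08 ± 0.17, adjusted p = 1.7e-05). Prox1os, antisense to the rule gene Prox1, was among the lower genes, but its reads may include those of Prox1, so it is not independent of the rule. Of 8 striatal genes 4 were lower, Pbx3, Meis2, Foxp2 and Six3, and 0 higher. Pbx3 and Foxp2 therefore stood higher in the Sst-negative cells than in the Sst-positive class and lower than in the CGE-type class.

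The promoters of Ackr3 and Nxph2, the called genes of the Cxcl12 system and of neurexin ligands with the widest gap to CGE-type cells, are shown from 250 bases before to 50 bases after the annotated start (RefSeq, GRCm38.p6, plus strand, 5′ to 3′). Capitals mark TGCTGA, letters of the Maf recognition element, searched on both strands, which occurred at 2 places in the Ackr3 window (chr1:90203730-90204029) and at 0 in the Nxph2 window (chr2:23320996-23321295).
Ackr3: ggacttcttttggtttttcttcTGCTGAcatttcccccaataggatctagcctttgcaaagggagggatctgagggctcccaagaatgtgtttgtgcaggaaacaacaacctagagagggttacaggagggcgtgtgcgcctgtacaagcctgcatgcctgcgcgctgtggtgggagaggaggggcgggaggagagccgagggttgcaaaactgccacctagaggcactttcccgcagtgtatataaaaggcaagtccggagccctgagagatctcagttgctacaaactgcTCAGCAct
Nxph2: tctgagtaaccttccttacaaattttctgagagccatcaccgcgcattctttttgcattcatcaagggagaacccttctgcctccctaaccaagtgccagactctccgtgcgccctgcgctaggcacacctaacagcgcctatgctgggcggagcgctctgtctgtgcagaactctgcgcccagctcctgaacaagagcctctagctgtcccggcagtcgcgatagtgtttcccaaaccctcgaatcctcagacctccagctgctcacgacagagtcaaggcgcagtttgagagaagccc
The letters TGCTGA on either strand were present in 19.1% of 27025 promoter windows of this length, in 16.5% of the 164 windows matched to genes higher in the Sst-negative cells than in CGE-type cells and in 10.6% of the 104 windows matched to lower genes. The homeodomain core TAATTA, a palindrome, was present in 5.31%, 1.83% and 2.88% of the same windows, and in neither window shown. Both are matches of letters and say nothing of binding.

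To describe how the Sst-negative cells varied among themselves, they were split by Mef2c, which was found in 198 of 239 and 222 of 271 cells. The cells without a Mef2c UMI numbered 41 and 49. Since a UMI is found more readily in a deep cell, the split followed depth in part: median depths were 5170 and 4166.5 UMIs with Mef2c and 3868 and 4025 UMIs without, and 17.7% and 9.91% against 4.88% and 2.04% of the cells were likely doublets. The edgeR test called 97 of 8226 genes (1.18%) higher and 34 (0.413%) lower in cells with Mef2c, and 216 and 103 with the library as a replicate block. They were 75 and 37 without the likely doublets.

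Synaptic adhesion genes were higher in the cells with Mef2c for 6 of 18 tested and lower for 0, with a median log2 difference of 0.53 against 0.01 over all genes. Tenm2, a teneurin, stood at 4983 and 4974 CPM with Mef2c and 1403 and 1868 CPM without (log2 difference 1.58 ± 0.15, adjusted p = 0.000831). Ptprd, Cntnap2, Tenm3 and Nxph2 were among the others. Reln stood at 295 and 225 CPM against 28.0 and 39.4 CPM (2.91 ± 0.31, adjusted p = 0.00131).

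The cells without Mef2c held more Npy, Etv1, St18 and the lncRNA Sfta3-ps. Npy stood at 369 and 340 CPM without Mef2c and at 182 and 91.6 CPM with it (log2 difference -1.38 ± 0.29, adjusted p = 0.0392). Etv1 stood at 268 and 320 CPM against 95.02 and 80.12 CPM (-1.77 ± 0.20, adjusted p = 0.00142), and St18 at 308 and 182 CPM against 38.0 and 50.2 CPM (-2.49 ± 0.28, adjusted p = 0.0015). Sfta3-ps (chr12:56490428-56529420, GRCm38.p6), which lies 2514 bases from Nkx2-1 (chr12:56531935-56536908), stood at 324 and 227 CPM against 64.6 and 17.6 CPM (-2.72 ± 0.44, adjusted p = 0.0109). Tox, an HMG-box factor, Dach2, and the ephrin system genes Efna5 and Epha4 were also higher without Mef2c: Efna5 stood at 665 and 651 CPM against 255 and 238 CPM (-1.44 ± 0.17, adjusted p = 0.00198) and Epha4 at 704 and 646 CPM against 321 and 182 CPM (-1.44 ± 0.25, adjusted p = 0.0166). Etv1 and St18 were thus higher both in the Sst-negative class as a whole and, within it, in the cells without Mef2c, while Npy was lower in the class than in Sst-positive cells and within it higher without Mef2c.

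**Figure D4:**
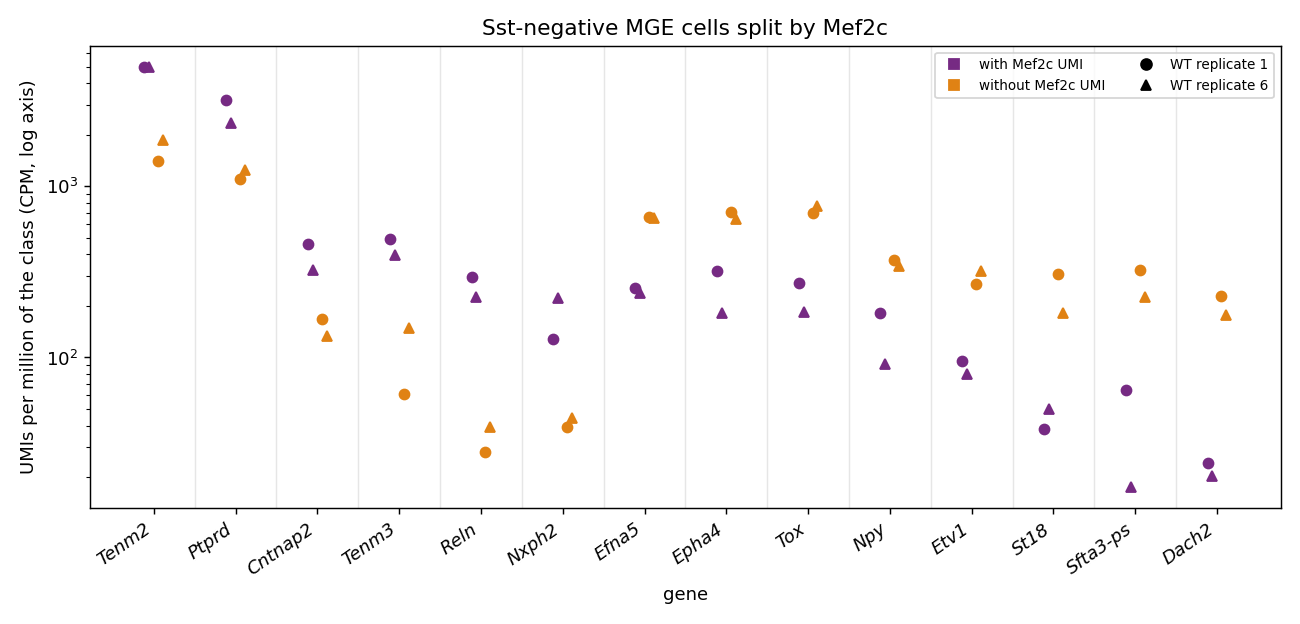
Level of 14 genes in the Sst-negative MGE cells with and without a Mef2c UMI, in CPM (log axis), with 1 point per library. Tenm2 to Nxph2 lay higher with Mef2c and Efna5 to Dach2 higher without it. The genes shown were taken from those called in this split, so their separation was part of the choice.

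Leaving out the likely doublets ended some of these calls. Meis2, a homeodomain factor of striatal and other neurons, lost its call (log2 difference 0.93 with all cells and -0.08 without the likely doublets). Foxp1 (1.57 and 0.98, adjusted p = 0.0623 without them), Kcnq5 (3.46 and 2.4, adjusted p = 0.0761) and Nr2f2 (-1.44 and -1.43, adjusted p = 0.0666) also missed the threshold, Nr2f2 with a difference of the same size.

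After thinning, which takes depth out of the split, Mef2c was found in 42.4% and 48.5% of the cells with Npy and in 65.5% and 71.9% of the cells without it. For Maf the shares were 63.2% and 75.4% with it and 61.5% and 63.8% without it. Etv1 was found in 11 of 26 and 8 of 15 cells with Nkx2-1, and in 18.3% and 20.7% of cells without it, over all UMIs. The cells with Nkx2-1 were deeper in WT replicate 1, with a median of 6759 against 4282 UMIs, and slightly shallower in WT replicate 6, with 3953 against 4131 UMIs. These shares describe the cells of 2 libraries and were not tested.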

How the data were processed

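Single-cell transcriptomes of 2 WT libraries of E16.5 dorsal telencephalon were analysed. The deposited UMI counts, which the authors made with Cell Ranger 7.0.0 on mm10 per the labels, held 32285 genes for 14136 and 13046 called cells (74930397 and 68964234 UMIs). Whether intronic reads were counted is not given in the sources used here, so a gene was compared only with itself between classes. The filter of 1500 to 60000 UMIs and under 10% mitochondrial UMIs follows the one stated for the study's nuclei. Doublets were scored against simulated pairs (scikit-learn 1.9.0), taking 0.8% per 1000 called cells, and were kept except where stated. Counts were summed per library and class (Python 3.11.15, pandas 2.3.3) and tested, two-sided, with edgeR 4.0.16 in R 4.3.3 (quasi-likelihood, TMM, filterByExpr, Benjamini-Hochberg over all genes tested, threshold 0.05), without the genes of the rules. The method was tested on simulated data. Ratios against all other cells had 10 CPM added and a minimum of 20 CPM. Named genes were those of 20 lists and the 20 highest ratios against all other cells. Added per test were the 10 largest called differences each way, with the same sign in both libraries and 20 CPM or more. The members and lists were chosen with earlier results of these data known. Classes from 1 library are paired by that library, and the deviations of paired sums from their class means correlated at 0.176, 0.131 and 0.0893 in the comparisons with Sst-positive cells, with CGE-type cells and by Mef2c. DESeq2 1.42.0, total counts, no count filter, stricter cell filters, other thresholds, the replicate block and leaving out a library were the alternatives. Conditional knockout libraries were not analysed here. Results on some genes are not reported here.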

Additional observations from a re-analysis of the deposited data

Results flagged for a closer look

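Some cells outside the cell filter also met the gene rule and enter no value above. In WT replicate 1, 8 cells with under 1500 UMIs and 18 cells with 10% or more mitochondrial UMIs did so, among 5997 cells outside the filter. In WT replicate 6 the numbers were 8 and 16 among 4837 cells. They were flagged as signal in data that the comparisons did not use, since a count of 0 would allow up to 3 cells.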

How the results depend on the processing

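The share of Sst-negative MGE cells was 2.66% with 3000 to 30000 UMIs and under 5% mitochondrial UMIs, 1.51% with at least 2 Lhx6 UMIs, 1.32% when cells were thinned to 1500 UMIs before the rule, and 2.94 to 3.30% with either library left out. Against Sst-positive cells, in place of 31 genes, edgeR called 18 with total counts, 314 without a count filter, 263 with the library as a replicate block, 95 without likely doublets, 48 under the stricter cell filter, 0 in cells of 2000 to 6000 UMIs, 19 with the 3 classes in 1 fit, and 358 without doublets and with the block. Of the 31 genes, 25 were called in the same direction without doublets and 22 under the stricter cell filter. The number was 19 with DESeq2 and 19 with at least 2 Lhx6 UMIs. With total counts, and with the 3 classes in 1 fit, it was 18. It was 16 with at least 2 Sst UMIs in the comparison class, and 31 without a count filter. St18, Satb1 and Calb1 kept their calls in 6 of 11 settings and Reln in 7. Etv1 kept its call in 8, Npy in 9, and Foxp2, Elfn1, Nebl and Neto1 in 10. Against CGE-type cells, in place of 381, the counts were 246 with DESeq2, 787 without a count filter, 575 without doublets and 885 without doublets and with the block, and 355 of the 381 were called without doublets. By Mef2c, in place of 131, they were 71 with DESeq2, 357 without a count filter, 319 with the block and 325 without doublets and with the block, and 77 of the 131 were called without doublets. The 285 genes at least 2-fold lower than in all other cells became 472 without doublets. With total counts 27.8% of the calls against Sst-positive cells were higher, without a count filter 65.6% and with the block 57.8%, against 35.5%. Fabp7 reversed against CGE-type cells, to -0.12 without doublets, -0.024 in cells of 2000 to 6000 UMIs and -0.12 without doublets and with the block, as did Meis2 by Mef2c, to -0.076 and -0.071 without doublets and without and with the block. The cause was not tested. The block with doublets left out, and the 2-fold counts without doublets, were chosen after seeing the data. With 1 library left out no residual spread remains, so only differences, and no counts of calls, could be computed. The split by Nkx2-1 (26 and 15 cells), and that by Mef2c under the stricter filter and in cells of 2000 to 6000 UMIs (19 and 26 cells in the smallest class), were not run.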

Other observations

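None of the 7 genes of DNA and histone methylation tested, Dot1l, Dnmt1 and Dnmt3a among them, was called by edgeR in the Sst-negative cells against Sst-positive cells, against CGE-type cells or by Mef2c. Their median log2 differences were 0.27, 0.24 and 0.17. Fabp7, a radial glia gene, was called higher than in CGE-type cells with all cells included, while Pax6 and Sox9 were called lower.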
